A study of Homo sapiens with 14 samples.

Results

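The comparison described here is between 22Rv1 cells labelled FOXA1 R219S and 22Rv1 cells labelled FOXA1 wild type (WT). 22Rv1 is an established human prostate cancer cell line. RNA was sequenced in 14 libraries of these cells, in 7 groups of 2, and 4 of the 14 libraries belong to the comparison: 2 R219S and 2 WT. The titles of 2 other libraries, a control hairpin group not used here, read 22Rv2, whereas their cell line label reads 22Rv1. The members were chosen by their labels, and every gene of their shared count table that passed a low-count filter was tested. The R219S genotype is labelled as the R219 mutation on a FOXA1_dTAG background, and the WT genotype as WT on the same FOXA1_dTAG background, in which FOXA1 carries a tag for induced degradation. Both groups were grown in RPMI medium with fetal bovine serum and antibiotics. The labels say that the libraries of the tag background received either the degrader dTAG or the solvent DMSO, without saying which of the 2 the R219S and WT cells received. They also do not say whether the R219S cells are 1 clone or several, or whether the altered FOXA1 is the native gene or an added copy. The libraries at 24 h and 0 h of dTAG treatment, 2 each, from cells labelled FOXA1_dTAG, serve below as the most similar comparison of the series.

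FOXA1 is a pioneer transcription factor: its forkhead domain binds DNA in closed chromatin and opens it for other factors, in the prostate above all for steroid receptors. Luminal prostate cells and most prostate cancers depend on it to express secretory genes such as the kallikreins. R219 lies in the forkhead domain, and R219 substitutions recur in prostate cancer. The question that the design poses is how the transcriptome of cells with the substituted factor differs from that of cells with the wild-type factor.

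The R219S libraries held 21.56 and 25.83 M counts and the WT libraries 38.47 and 26.41 M, and the 24 h and 0 h libraries between 32.09 and 35.54 M. Levels are given as counts-per-million (CPM) after TMM scaling, with scaling factors between 0.993 and 1.009, and can be compared between cells but not between genes of different length. Replicates of a group differed by more than counting noise, with a chi-square per degree of freedom of 2.07 in R219S and 2.83 in WT. The labels do not state that replicates came from separate cultures, so the p-values reflect no more than the spread among these 4 libraries. The summed level of 8 luminal markers, all of them tested, was 8134 and 7924 CPM in R219S cells and 7215 and 7217 CPM in WT cells, most of it KRT8. The summed levels of 3 endothelial and of 3 leukocyte markers were between 0.0518 and 1.12 CPM in every library, and COL1A2 and NEUROD1 had no count in any. In bulk RNA a smaller number of cells of a type cannot be told apart from less RNA per cell.

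FOXA1 mRNA was present in both groups and lower in R219S cells. Its level was 703 and 681 CPM in R219S cells, against 1019 and 1032 CPM in WT cells, a log2 fold change of -0.57 ± 0.036 (SE, n = 2 each; adjusted p = 1.28e-45), or 67.5% of the WT level. Both R219S libraries lay below both WT libraries. In the separately counted dTAG table the same gene had 205 and 196 CPM at 24 h, against 171 and 169 CPM at 0 h, below both groups of the comparison. Levels set across these separately counted tables were not tested, and why they differ was not tested. The counts do not distinguish the altered transcript from the wild-type one.

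Of 13990 genes tested, 8688 (62.1%) were called at an adjusted p under 0.05, 4272 (30.5%) of them higher and 4416 (31.6%) lower in R219S cells. Most of these changes were small: 5873 were under 1.5-fold and the median absolute log2 change of called genes was 0.38. A change of at least 2-fold was called for 1555 genes (11.1%), with 545 (3.9%) higher and 1010 (7.22%) lower. At 4-fold the numbers were 186 higher and 363 lower, and at 16-fold 37 higher and 79 lower. The levels of the groups did not overlap for 11115 genes (79.4%), and the median log2 fold change of all genes was 0.0034. With 2 libraries a group, this background is the measure against which the counts of each gene group below should be read.

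**Figure D1:**
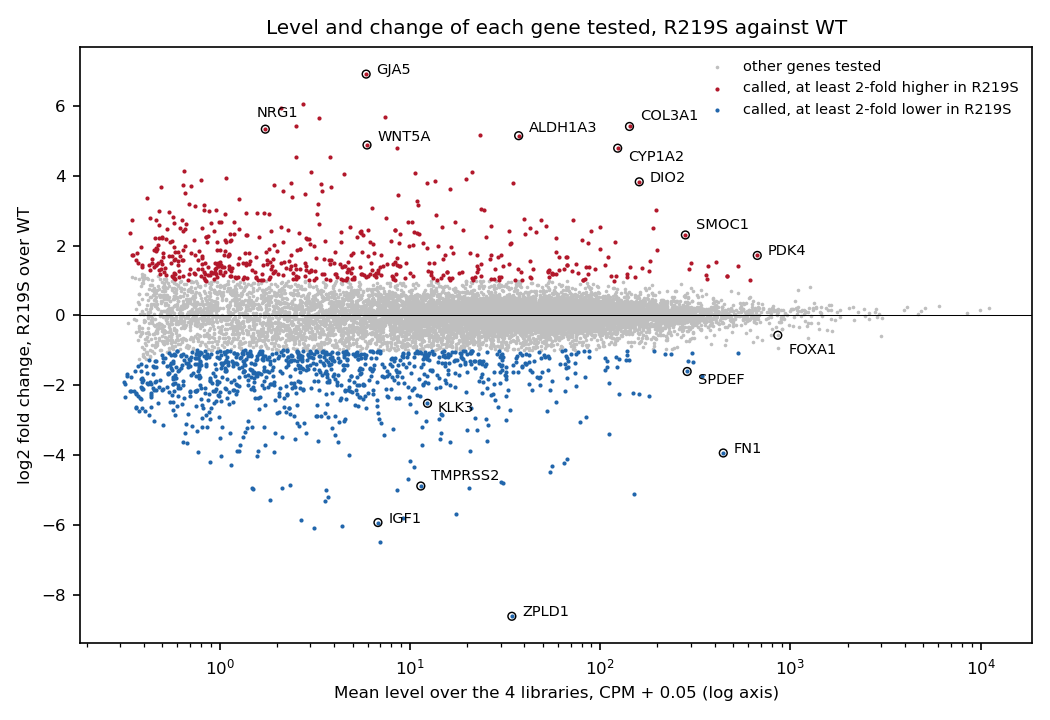
Mean level over the 4 libraries (CPM + 0.05, log axis) against the log2 fold change of R219S over WT, 1 point per gene. Shown are 13892 genes; 78 genes with at most 3 counts in a group are left out because their fitted fold change has no firm size, and 20 tested features with names turned into dates are not shown. Falls of at least 2-fold outnumber rises, 1010 to 545 over all genes tested, and COL3A1, CYP1A2, DIO2 and FN1 combine high levels with large changes.

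Genes known to respond to androgen were mostly lower in R219S cells. Of 27 androgen-responsive genes tested, 21 fell and 4 rose, with a median log2 fold change of -0.81 (background: 30.5% of all genes higher, 31.6% lower), and 11 fell at least 2-fold. TMPRSS2, a membrane serine protease and common fusion partner of ERG, had 0.700 and 0.778 CPM in R219S cells, against 23.3 and 20.6 CPM in WT cells (log2 -4.89 ± 0.16, adjusted p = 7.10e-129). Both R219S libraries lay close to each other and far below the WT pair. KLK3, which encodes prostate-specific antigen, had 3.60 and 3.70 CPM in R219S cells, against 20.1 and 21.9 CPM in WT cells (log2 -2.52 ± 0.11). KLK2, a kallikrein that activates the KLK3 protein, had 23.7 and 20.5 CPM in R219S cells, against 74.6 and 75.3 CPM in WT cells (log2 -1.77 ± 0.062). KLK4 had 176 and 174 CPM in R219S cells, against 434 and 443 CPM in WT cells (log2 -1.33 ± 0.040). For each of these 3 kallikreins the highest R219S library was below the lowest WT library. They were among the genes chosen by smallest p, and groups did not overlap for 79.4% of all genes, so this is no separate finding. FKBP5, a co-chaperone of steroid receptors, fell less: it had 943 and 978 CPM in R219S cells, against 1519.7 and 1485 CPM in WT cells (log2 -0.65 ± 0.036). RAB3B, a GTPase of secretory vesicles, had 4.62 and 5.49 CPM in R219S cells, against 41.1 and 36.8 CPM in WT cells (log2 -2.94 ± 0.094). The transporter SLC45A3 had 9.95 and 9.22 CPM in R219S cells, against 21.4 and 22.3 CPM in WT cells (log2 -1.19 ± 0.092). Among the 4 that rose, EAF2 moved most (6.12 and 6.38 CPM in R219S cells, against 3.61 and 3.42 CPM in WT cells, log2 0.83 ± 0.15), a gene named after its values were seen.

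**Figure D2:**
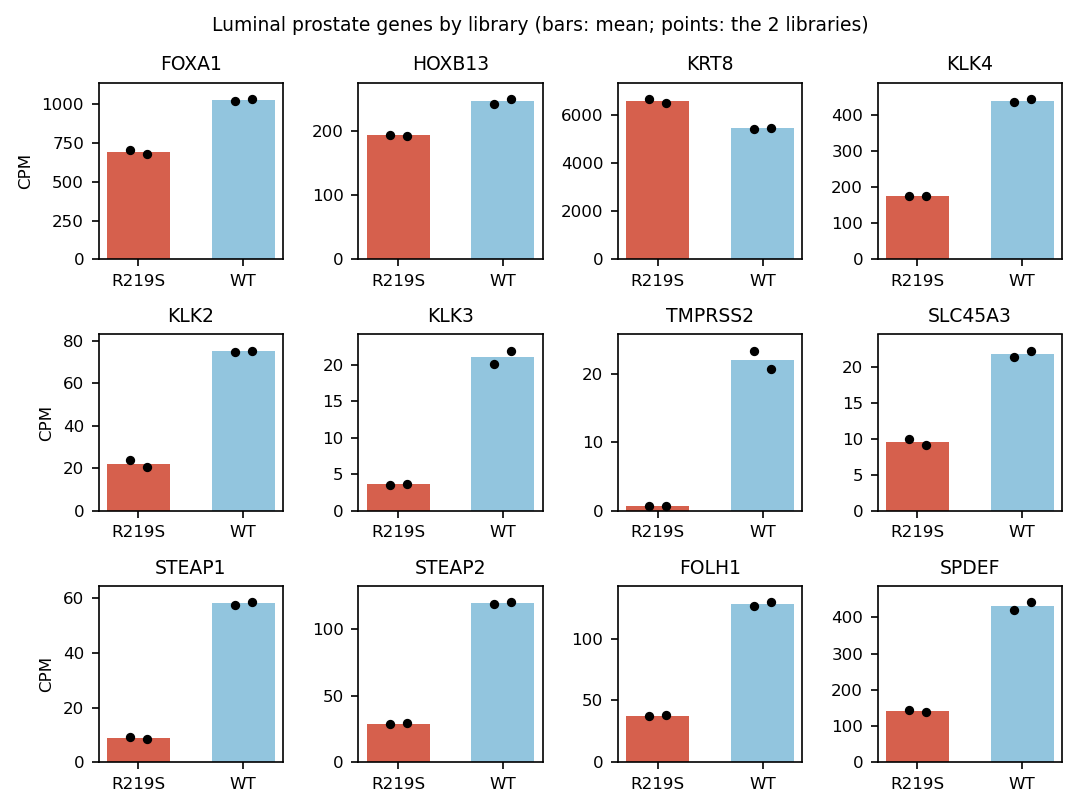
Levels (CPM, axis from 0) of 12 luminal prostate genes in the 2 R219S libraries (left) and the 2 WT libraries (right), with bars at the mean and points at each library. KRT8 is higher in R219S, and the kallikreins, TMPRSS2, SLC45A3, STEAP1, STEAP2, FOLH1 and SPDEF are lower in R219S.

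The kallikrein family did not move as one. Of 10 members tested, 4 fell (KLK1, KLK2, KLK3 and KLK4) and 3 rose. The members that rose, KLK14, KLK8 and KLK7, were expressed at low level, and the skin protease gene KLK7 had 0.654 and 0.817 CPM in R219S cells, against 0.130 and 0.188 CPM in WT cells (log2 2.24 ± 0.55, adjusted p = 0.000152), a value looked up after the list was read. KLK1, tissue kallikrein, had 29.5 and 28.3 CPM in R219S cells, against 51.2 and 51.4 CPM in WT cells (log2 -0.83 ± 0.063).

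Several genes of the UGT2B family, which includes enzymes that inactivate androgens by glucuronidation, were reduced below detection or nearly so. UGT2B15 had 0 counts in both R219S libraries, against 5.21 and 4.09 CPM in WT cells, and was at least 74.7-fold lower by a floor of 3 counts over the group. UGT2B11 had 0 counts in both R219S libraries, against 3.03 and 2.63 CPM in WT cells (at least 45.0-fold lower). UGT2B28 had 2 counts in the R219S group and 137 in the WT group, an R219S to WT ratio of 0.0202 (exact 95% interval 0.00242 to 0.0744). UGT2B17 and UGT2B10 were also at 0 CPM in both R219S libraries, but are given without a WT level, so no reduction is stated for them. These genes are near-identical copies of each other, and how shared reads were divided among them is uncertain. Of the 18 genes tested for androgen synthesis and glucuronidation, 11 fell and 3 rose (median log2 -0.60). SRD5A1, a 5-alpha reductase that makes dihydrotestosterone, had 17.7 and 20.2 CPM in R219S cells, against 31.5 and 30.4 CPM in WT cells (log2 -0.70 ± 0.075). The 3 that rose were HSD17B3, STS and AKR1C1, and AKR1C1, with near-identical paralogs, had 0.934 and 0.662 CPM in R219S cells, against 0.285 and 0.225 CPM in WT cells (log2 1.58 ± 0.48).

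The promoter of UGT2B15 is shown because the gene is among those with 0 counts in R219S cells and holds the forkhead core motif TGTTTAC, read on either strand. Promoter windows from RefSeq (GRCh38.p14) spanned 250 bases before to 50 bases after each gene's start, and 10492 of the tested genes had one. The motif was present in 2.17% of these, in 20 of 715 genes (2.80%) at least 2-fold lower in R219S cells and in 8 of 386 (2.07%) at least 2-fold higher. These shares are a description of the letters in a short window, without a test, and most regulatory sites of FOXA1 lie outside such windows. Of 192 named genes with a window, 6 held the motif: UGT2B15, IGF1, TRIB2 and CCND3, which fell (TRIB2 log2 -1.26 ± 0.15, CCND3 log2 -0.43 ± 0.050), and DDX17 and EZH1, which rose (log2 0.52 ± 0.037 and 0.47 ± 0.050). The promoters of UGT2B15, described above, and of IGF1, described below, are printed as the largest falls among them. The 250 bases before each start are given 5′ to 3′ on the gene's strand with the motif (as its reverse complement) in capitals: UGT2B15 at chr4:68670653-68670902 (minus strand) and IGF1 at chr12:102481748-102481997 (minus strand).
UGT2B15: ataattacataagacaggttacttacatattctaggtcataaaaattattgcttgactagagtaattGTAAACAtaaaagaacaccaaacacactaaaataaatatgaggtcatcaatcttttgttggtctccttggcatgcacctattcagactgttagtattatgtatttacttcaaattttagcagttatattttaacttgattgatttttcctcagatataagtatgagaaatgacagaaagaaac
IGF1: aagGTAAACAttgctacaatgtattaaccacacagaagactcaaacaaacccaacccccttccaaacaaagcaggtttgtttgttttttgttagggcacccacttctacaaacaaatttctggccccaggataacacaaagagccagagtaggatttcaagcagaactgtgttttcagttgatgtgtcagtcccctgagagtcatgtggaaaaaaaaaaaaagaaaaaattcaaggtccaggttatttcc

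Among 20 transcription factors of the luminal lineage, 12 fell and 4 rose, with a median log2 fold change of -0.28. SPDEF, an ETS factor of secretory differentiation, had 144 and 139 CPM in R219S cells, against 421 and 442 CPM in WT cells (log2 -1.61 ± 0.041, adjusted p = 1.84e-177). EHF, another epithelial ETS factor, had 10.5 and 11.5 CPM in R219S cells, against 28.6 and 27.2 CPM in WT cells (log2 -1.34 ± 0.085). HOXB13, a prostate homeobox factor, fell less, with 194 and 192 CPM in R219S cells, against 242 and 249.8 CPM in WT cells (log2 -0.35 ± 0.040). In each of these 3 genes both R219S libraries lay below both WT libraries. Groups did not overlap for 79.4% of all genes tested, and these 3 were chosen by smallest p, so this is no separate finding. The factors that rose included GRHL2, which maintains epithelial junction genes, at 315 and 300.3 CPM in R219S cells, against 194 and 185 CPM in WT cells (log2 0.70 ± 0.040). KLF5, a Krueppel-like factor of epithelia, had 112 and 112 CPM in R219S cells, against 57.1 and 61.3 CPM in WT cells (log2 0.93 ± 0.048). GATA3, a luminal factor of breast and urothelium, rose most of the list, at 8.22 and 9.96 CPM in R219S cells, against 1.43 and 2.25 CPM in WT cells (log2 2.36 ± 0.16, adjusted p = 1.71e-40), and was picked out after its values were seen. GATA2 fell by 0.16 on the log2 scale.

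Luminal surface and secretory markers fell while simple-epithelial keratins rose. Of 16 luminal keratin and epithelial markers all 16 were called, 12 lower and 4 higher, with a median log2 fold change of -1.68, and 10 fell at least 2-fold. STEAP1, a metalloreductase of the cell surface, had 9.34 and 8.52 CPM in R219S cells, against 57.8 and 58.7 CPM in WT cells (log2 -2.71 ± 0.078). STEAP2 had 29.1 and 29.3 CPM in R219S cells, against 119 and 121 CPM in WT cells (log2 -2.04 ± 0.054). FOLH1, the gene of prostate-specific membrane antigen (PSMA), had 37.4 and 38.3 CPM in R219S cells, against 127 and 129 CPM in WT cells (log2 -1.76 ± 0.051). EPCAM, an epithelial adhesion molecule, had 4.06 and 3.58 CPM in R219S cells, against 15.4 and 16.1 CPM in WT cells (log2 -2.04 ± 0.12), and MSMB, a seminal plasma protein, was at 0 CPM in both R219S libraries, against 0.674 and 0.451 CPM in WT cells. EPCAM and MSMB were named after their values were seen. The 4 members that rose were all keratins of simple epithelium. KRT8 had 6670.5 and 6488 CPM in R219S cells, against 5432 and 5469 CPM in WT cells (log2 0.27 ± 0.034). Its partner KRT18 had 616 and 601 CPM in R219S cells, against 489.5 and 456 CPM in WT cells (log2 0.36 ± 0.037). KRT19 had 1389 and 1351 CPM in R219S cells, against 805 and 837 CPM in WT cells (log2 0.74 ± 0.036). KRT7 rose by 1.51 on the log2 scale.

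Genes whose products are targets of antibody or cell therapies overlap with these. Of 13 tested, 9 (69.2%) fell and 4 rose (median log2 -0.95), against 31.6% lower and 30.5% higher of all genes tested. Besides STEAP1, STEAP2 and FOLH1, F3, which encodes tissue factor, had 17.4 and 17.4 CPM in R219S cells, against 68.97 and 65.7 CPM in WT cells (log2 -1.95 ± 0.066). ERBB2, the HER2 receptor, had 154 and 147 CPM in R219S cells, against 287 and 295 CPM in WT cells (log2 -0.95 ± 0.041). DLL3, a Notch ligand typical of neuroendocrine tumours, had 88.9 and 83.9 CPM in R219S cells, against 57.1 and 58.8 CPM in WT cells (log2 0.58 ± 0.050). ROR1, a receptor tyrosine kinase that binds WNT5A, rose to 22.6 and 22.4 CPM in R219S cells, against 5.50 and 5.86 CPM in WT cells (log2 1.99 ± 0.10) and was picked out after its values were seen. The share of this list that rose was near that of all genes tested, and the share that fell was above it.

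Mucin and glycosylation genes were mostly lower, 16 of 24 tested, with 4 higher (median log2 -0.68), and 9 fell at least 2-fold. GCNT1, which builds branched core 2 O-glycans, had 4.76 and 4.63 CPM in R219S cells, against 105 and 104 CPM in WT cells (log2 -4.48 ± 0.078, adjusted p = 6.74e-263). ST6GALNAC1, the sialyl-Tn synthase, had 3 counts in the R219S group and 549 in the WT group, an R219S to WT ratio of 0.00756 (exact 95% interval 0.00155 to 0.0222). ST6GALNAC2 had 1.40 and 1.09 CPM in R219S cells, against 13.5 and 13.3 CPM in WT cells (log2 -3.44 ± 0.16). ST3GAL1, which caps core 1 O-glycans with sialic acid, had 154 and 163 CPM in R219S cells, against 539 and 514 CPM in WT cells (log2 -1.73 ± 0.040). All 4 act on O-linked glycans. They were chosen by smallest p, so that none of their groups overlapped is no separate finding.

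Secreted and transport genes of liver or intestine type that these prostate cells express were reduced too. ALB, albumin, had 3.46 and 3.04 CPM in R219S cells, against 24.98 and 25.1 CPM in WT cells (log2 -2.95 ± 0.11), and of 8 liver-type secreted protein genes tested 7 fell and 1 rose. GC, the vitamin D binding protein, had 0 counts in both R219S libraries, against 6.12 and 6.01 CPM in WT cells, at least 95.4-fold lower. SLC22A10, an organic ion transporter family member, also had 0 counts, against 2.41 and 2.06 CPM in WT cells, at least 35.6-fold lower. HNF4G, a nuclear receptor of gut and kidney, had 10.2 and 11.4 CPM in R219S cells, against 23.5 and 21.4 CPM in WT cells (log2 -1.06 ± 0.089). Within the 7 HNF, ONECUT and gut factors tested, 4 fell and 1 rose.

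Other genes stood out by the size or the mass of their fall. ZPLD1 had 0.233 and 0.117 CPM in R219S cells, against 69.7 and 67.2 CPM in WT cells, a log2 fold change of -8.62 ± 0.16. VCAN, the matrix proteoglycan versican, had 1.59 and 2.61 CPM in R219S cells, against 59.6 and 60.2 CPM in WT cells (log2 -4.80 ± 0.10). FN1, the matrix protein fibronectin, had 56.2 and 52.5 CPM in R219S cells, against 854 and 813 CPM in WT cells (log2 -3.94 ± 0.046). HPGD, which inactivates prostaglandins, had 6.16 and 6.81 CPM in R219S cells, against 124 and 122 CPM in WT cells (log2 -4.24 ± 0.071). ALPL, alkaline phosphatase, had 6.44 and 8.21 CPM in R219S cells, against 128 and 127 CPM in WT cells (log2 -4.10 ± 0.069). AKAP12, a kinase scaffold, had 19.7 and 19.4 CPM in R219S cells, against 206 and 202 CPM in WT cells (log2 -3.38 ± 0.055). In each of these genes both R219S libraries were a small fraction of the lowest WT library. They were named for the size or the p-value of their fall, so this separation is no separate finding. IGF1, insulin-like growth factor 1, had 0.187 and 0.234 CPM in R219S cells, against 12.9 and 13.7 CPM in WT cells (log2 -5.93 ± 0.24, adjusted p = 7.26e-98). FASN, fatty acid synthase, lost the most CPM in absolute terms together with FN1: it had 2457 and 2329 CPM in R219S cells, against 3494 and 3714 CPM in WT cells (log2 -0.59 ± 0.035). HLA-DQB1, a class II antigen presentation gene, had 0.233 and 0.0778 CPM in R219S cells, against 13.6 and 13.7 CPM in WT cells (log2 -6.48 ± 0.25), and its reads may be shared with the near-identical HLA-DQB2, which had 2 counts in the R219S group and 453 in the WT group. The others among the 15 largest falls were MMP10, with 0 counts in R219S cells and at least 18.3-fold lower, and PZP, DSCAM, FBXL7, P2RY4 and VTCN1, each with 1 count in the R219S group against 119 to 294 in the WT group.

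The largest rises were of genes that WT cells barely expressed. GJA5, the gap junction protein connexin 40, had 10.97 and 12.2 CPM in R219S cells, against 0.104 and 0.0751 CPM in WT cells (log2 6.91 ± 0.27). MYOT, a sarcomere protein, had 13.4 and 15.3 CPM in R219S cells, against 0.233 and 0.338 CPM in WT cells (log2 5.68 ± 0.21). S1PR1, the sphingosine-1-phosphate receptor, had 4.81 and 4.86 CPM in R219S cells, against 0.0259 and 0.225 CPM in WT cells (log2 5.43 ± 0.36). KCNE4, a potassium channel subunit, had 45.8 and 45.3 CPM in R219S cells, against 1.43 and 1.01 CPM in WT cells (log2 5.18 ± 0.11). The rule that chose these genes required groups that do not overlap and ranked them by fold change. Their separation from the WT libraries is therefore no separate finding. The 15 largest rises also included BMX, CNTNAP5, SLAMF1, PLCXD3, S100A14 and PTPRD, at 1.54 to 5.88 CPM in the R219S libraries, and EPGN, COL3A1 and NRG1, described below.

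Genes at high level that rose included a collagen, a thyroid hormone enzyme and a metabolic kinase. COL3A1, the fibrillar collagen III chain, had 276 and 281 CPM in R219S cells, against 7.03 and 5.86 CPM in WT cells (log2 5.41 ± 0.062). DIO2, which converts thyroxine to its active form, had 296 and 304 CPM in R219S cells, against 21.8 and 20.2 CPM in WT cells (log2 3.83 ± 0.051). PDK4, which restrains pyruvate entry into the mitochondrial citrate cycle, had 1002 and 1053 CPM in R219S cells, against 308 and 316 CPM in WT cells (log2 1.72 ± 0.038). Of 9 fibroblast markers tested, 4 rose and 2 fell, with a median log2 fold change of -0.34. COL1A1, a chain of collagen I, had 13.5 and 13.5 CPM in R219S cells, against 25.2 and 25.002 CPM in WT cells (log2 -0.89 ± 0.083). DCN, decorin, had 38.1 and 38.6 CPM in R219S cells, against 21.2 and 19.9 CPM in WT cells (log2 0.89 ± 0.070). The summed level of COL1A1, COL1A2, PDGFRB and DCN was 51.8 and 52.5 CPM in R219S cells and 47.0 and 45.3 CPM in WT cells, with COL1A2 at no count, and the part of such markers in the COL3A1 result was not tested.

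Of 30 extracellular matrix and basement membrane genes tested, 14 (46.7%) fell and 9 rose (median log2 -0.33). Of all genes tested 31.6% were lower and 30.5% higher. Beside VCAN and FN1, SPOCK1, a testican proteoglycan, had 51.6 and 52.9 CPM in R219S cells, against 251 and 241 CPM in WT cells (log2 -2.23 ± 0.046). In the other direction, SMOC1, a calcium-binding matricellular protein, had 474 and 460.0 CPM in R219S cells, against 93.8 and 95.1 CPM in WT cells (log2 2.31 ± 0.042). THBS1, thrombospondin 1, had 85.2 and 84.3 CPM in R219S cells, against 12.8 and 12.5 CPM in WT cells (log2 2.74 ± 0.065) and was named after its values were seen. The share of matrix genes that rose was near that of all genes tested, and the share that fell was above it.

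Among 17 genes of the epithelial-mesenchymal switch, 7 fell and 5 rose. The mesenchymal repressors ZEB1, ZEB2 and SNAI1 rose, all at low level. ZEB1 had 0.420 and 0.856 CPM in R219S cells, against 0.0259 and 0.0375 CPM in WT cells (log2 4.23 ± 0.80, adjusted p = 5.96e-07). SNAI1 had 1.40 and 1.25 CPM in R219S cells, against 0.311 and 0.225 CPM in WT cells (log2 2.24 ± 0.42, adjusted p = 4.51e-07). ZEB2 had 0.747 and 0.856 CPM in R219S cells, against 0.130 and 0.263 CPM in WT cells (log2 2.10 ± 0.52). These 3 were picked out after their values were seen. CDH1, E-cadherin, the classic target of these repressors, had 199 and 205 CPM in R219S cells, against 248 and 235 CPM in WT cells (log2 -0.26 ± 0.040). The mesenchymal filament gene VIM, vimentin, had 2.90 and 2.65 CPM in R219S cells, against 2.96 and 4.20 CPM in WT cells (log2 -0.34 ± 0.19, adjusted p = 0.113). FN1 fell, as given above.

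Basal epithelial markers gave a mixed picture at low level. Of 13 tested, 6 rose and 4 fell (median log2 0.57). KRT15, a basal keratin, had 16.6 and 15.1 CPM in R219S cells, against 3.92 and 4.02 CPM in WT cells (log2 2.00 ± 0.12). LAMB3, a chain of the basement membrane protein laminin 332, had 15.1 and 12.9 CPM in R219S cells, against 2.59 and 2.52 CPM in WT cells (log2 2.45 ± 0.13). CD44, a hyaluronan receptor, had 60.8 and 64.5 CPM in R219S cells, against 36.7 and 34.95 CPM in WT cells (log2 0.80 ± 0.057). The defining basal factor TP63 had 0.14 and 0.117 CPM in R219S cells and 0 and 0.0751 CPM in WT cells, KRT5 had 0 counts in R219S cells and 1 in WT cells, and the summed level of 4 defining basal markers, 17.0 and 15.6 CPM in R219S cells and 3.92 and 4.24 CPM in WT cells, was nearly all KRT15. Among neuroendocrine regulators, INSM1 had 1 count in the R219S group and 2 in the WT group. The neuroendocrine granule and peptide genes fell in 7 and rose in 5 of 15 tested, among them SCGN, secretagogin, which had 18.1 and 18.7 CPM in R219S cells, against 3.29 and 4.17 CPM in WT cells (log2 2.33 ± 0.11). CPE, a prohormone-processing enzyme, had 166 and 167 CPM in R219S cells, against 421 and 408 CPM in WT cells (log2 -1.32 ± 0.040).

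Xenobiotic and retinoid metabolism held several of the most certain rises. CYP1A2, an oxidase of aromatic amines, had 238 and 239.6 CPM in R219S cells, against 9.23 and 7.77 CPM in WT cells (log2 4.79 ± 0.060). CYP1A1, which oxidises polycyclic hydrocarbons, had 358 and 341 CPM in R219S cells, against 45.4 and 40.3 CPM in WT cells (log2 3.02 ± 0.046, adjusted p = 6.68e-300). The 2 genes are close copies, so a part of their reads may be shared. AHR, the aryl hydrocarbon receptor that induces both, had 130.3 and 132 CPM in R219S cells, against 28.9 and 30.5 CPM in WT cells (log2 2.15 ± 0.052). ALDH1A3, which makes retinoic acid, had 71.2 and 73.8 CPM in R219S cells, against 2.07 and 1.99 CPM in WT cells (log2 5.15 ± 0.10, adjusted p = 4.75e-248). The list as a whole had 11 of 24 tested genes higher and 9 lower, with 6 at least 2-fold higher and 4 at least 2-fold lower. Of other genes induced by AHR, AHRR rose by 0.53 and TIPARP by 0.37 on the log2 scale, whereas CYP1B1 fell by 0.53. ALDH1A1, a relative of ALDH1A3, had 0.654 and 0.350 CPM in R219S cells, against 2.39 and 2.78 CPM in WT cells (log2 -2.38 ± 0.32). These 4 were picked out after their values were seen.

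Ligands and receptors of growth factor pathways changed in a member-specific way. In the EGF family, 3 of 14 tested genes rose and 6 fell. NRG1, the neuregulin that binds ERBB3 and ERBB4, had 3.60 and 2.997 CPM in R219S cells, against 0.0519 and 0.113 CPM in WT cells (log2 5.34 ± 0.43). EPGN, epigen, a ligand of EGFR, had 6.91 and 5.88 CPM in R219S cells, against 0.0778 and 0.188 CPM in WT cells (log2 5.64 ± 0.32). HBEGF, another EGFR ligand, had 2.90 and 2.88 CPM in R219S cells, against 16.5 and 17.3 CPM in WT cells (log2 -2.55 ± 0.13). Ligands of 1 receptor family thus moved in opposite directions, while the receptors ERBB2, ERBB3, ERBB4 and EGFR were each called lower. In the IGF system, 6 of 16 rose, 5 fell and 5 were not called, with a median log2 fold change of 0.017. Of all genes tested 30.5% were higher and 31.6% lower. In this list 3 were at least 2-fold higher and 4 at least 2-fold lower. IGF1R, the receptor, had 8.73 and 9.38 CPM in R219S cells, against 43.9 and 44.6 CPM in WT cells (log2 -2.28 ± 0.082). Its substrate IRS2 had 63.1 and 65.8 CPM in R219S cells, against 178 and 184 CPM in WT cells (log2 -1.49 ± 0.046). The binding protein IGFBP3 had 275 and 268 CPM in R219S cells, against 92.6 and 93.5 CPM in WT cells (log2 1.55 ± 0.042). IGF1 (above), IGF1R and IRS2 fell and IGFBP3 rose. These 4 were chosen by smallest p and do not stand for the list.

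Among 29 Wnt genes 9 rose and 7 fell. Of the list 55.2% were called, against 62.1% of all genes tested, where 30.5% were higher and 31.6% lower. WNT5A, a ligand of the non-canonical branch, had 11.3 and 11.6 CPM in R219S cells, against 0.415 and 0.338 CPM in WT cells (log2 4.88 ± 0.21). LEF1, a nuclear partner of beta-catenin, had 54.6 and 55.5 CPM in R219S cells, against 12.7 and 13.4 CPM in WT cells (log2 2.08 ± 0.071). WIF1, a secreted Wnt inhibitor, had 3.27 and 2.88 CPM in R219S cells, against 0.804 and 0.901 CPM in WT cells (log2 1.85 ± 0.27). KREMEN1 fell, with 28.7 and 27.4 CPM in R219S cells, against 54.1 and 52.6 CPM in WT cells (log2 -0.93 ± 0.063). In the TGF-beta and BMP pathway 12 of 31 rose and 15 fell. BAMBI, a decoy receptor, had 0.374 and 1.28 CPM in R219S cells, against 6.80 and 6.23 CPM in WT cells (log2 -2.91 ± 0.22). ID2, an inhibitor of helix-loop-helix factors, had 75.2 and 80.3 CPM in R219S cells, against 15.3 and 14.1 CPM in WT cells (log2 2.40 ± 0.065). TGFB1 itself had 32.7 and 32.1 CPM in R219S cells, against 58.1 and 62.9 CPM in WT cells (log2 -0.90 ± 0.059). In the FGF and MAPK feedback list 10 of 19 fell and 5 rose. FGF13 had 2.62 and 2.26 CPM in R219S cells, against 30.7 and 29.6 CPM in WT cells (log2 -3.64 ± 0.12). The receptor gene FGFR3 had 59.3 and 55.03 CPM in R219S cells, against 158 and 162 CPM in WT cells (log2 -1.49 ± 0.047).

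Axon guidance and neuronal adhesion genes rose in 16 and fell in 9 of 30 tested (median log2 0.38), with 10 at least 2-fold higher and 6 at least 2-fold lower. The secreted semaphorin SEMA3C had 126 and 123 CPM in R219S cells, against 19.5 and 17.8 CPM in WT cells (log2 2.73 ± 0.056). SEMA3D had 25.4 and 23.2 CPM in R219S cells, against 3.94 and 2.44 CPM in WT cells (log2 2.87 ± 0.11). EPHA3, an ephrin receptor, had 154 and 149.9 CPM in R219S cells, against 29.6 and 26.5 CPM in WT cells (log2 2.43 ± 0.051). CADM2, an adhesion molecule of synapses, went the other way, with 0.841 and 0.623 CPM in R219S cells, against 18.6 and 18.996 CPM in WT cells (log2 -4.69 ± 0.17). Among SOX factors, SOX9 had 83.6 and 84.9 CPM in R219S cells, against 46.6 and 48.99 CPM in WT cells (log2 0.82 ± 0.051). SOX4 had 65.8 and 62.5 CPM in R219S cells, against 144 and 152 CPM in WT cells (log2 -1.21 ± 0.047). SOX11 had 1.63 and 2.14 CPM in R219S cells, against 11.1 and 11.9 CPM in WT cells (log2 -2.59 ± 0.15).

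Proliferation genes shifted by small amounts. Of 30 mitosis and G2/M genes tested, 27 fell and 3 were not called, with a median log2 fold change of -0.36 and 1 fall of at least 2-fold. That gene, CDC25C, a phosphatase that triggers mitotic entry, had 14.8 and 12.5 CPM in R219S cells, against 28.4 and 28.1 CPM in WT cells (log2 -1.06 ± 0.081). BUB1B, of the spindle checkpoint, had 73.9 and 73.5 CPM in R219S cells, against 107 and 110.0 CPM in WT cells (log2 -0.56 ± 0.047). TOP2A, a topoisomerase, had 245 and 243 CPM in R219S cells, against 336 and 334 CPM in WT cells (log2 -0.45 ± 0.039). DNA replication and G1/S genes fell in 15 and rose in 4 of 32 (median log2 -0.11). Of 32 ribosome biogenesis and MYC network genes 22 rose and 5 fell (median log2 0.27). MYC, the growth regulator, had 349 and 345 CPM in R219S cells, against 222 and 224 CPM in WT cells (log2 0.64 ± 0.039). The nucleolar gene UTP20 had 49.2 and 48.1 CPM in R219S cells, against 27.4 and 26.5 CPM in WT cells (log2 0.85 ± 0.064). GNL3, nucleostemin, fell, with 219 and 224 CPM in R219S cells, against 326 and 325 CPM in WT cells (log2 -0.55 ± 0.039). Of 30 p53 targets 18 fell and 3 rose (median log2 -0.26). The death receptor gene TNFRSF10B had 269 and 278 CPM in R219S cells, against 499 and 476 CPM in WT cells (log2 -0.83 ± 0.039). TP53INP1, a stress-response gene, had 75.8 and 72.5 CPM in R219S cells, against 136 and 137 CPM in WT cells (log2 -0.88 ± 0.046).

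The series is titled for cohesin loading, and no gene of cohesin, condensin and loop architecture was called at least 2-fold changed. Of 31 tested, 24 (77.4%) were called, against 62.1% of all genes tested. Of the 31, 11 rose and 13 (41.9%) fell, against 30.5% higher and 31.6% lower of all genes tested. Their median log2 fold change was -0.056. NIPBL, the cohesin loader, had 110.3 and 113 CPM in R219S cells, against 108 and 109 CPM in WT cells (log2 0.038 ± 0.045, adjusted p = 0.477), and CTCF, the loop anchor, rose by 0.13 on the log2 scale. STAG1, a cohesin subunit, had 65.8 and 69.5 CPM in R219S cells, against 40.95 and 39.98 CPM in WT cells (log2 0.74 ± 0.055). SMC6, of the related SMC5/6 complex, had 44.1 and 48.8 CPM in R219S cells, against 25.3 and 26.2 CPM in WT cells (log2 0.86 ± 0.065). NCAPD3, a condensin II subunit, had 179 and 177 CPM in R219S cells, against 342 and 323 CPM in WT cells (log2 -0.90 ± 0.040). NIPBL and CTCF are given for the series title, after their values were seen.

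Metabolic and stress genes moved in smaller groups. Cholesterol synthesis and uptake genes rose in 15 and fell in 3 of 27 (median log2 0.17), with no rise and 2 falls of at least 2-fold. DHCR7, which reduces 7-dehydrocholesterol to cholesterol, had 231 and 222 CPM in R219S cells, against 151 and 154 CPM in WT cells (log2 0.57 ± 0.041). The cholesterol exporter gene ABCG1 had 1.35 and 2.14 CPM in R219S cells, against 9.29 and 9.65 CPM in WT cells (log2 -2.41 ± 0.16). SREBF1, the lipogenic transcription factor, had 841 and 804 CPM in R219S cells, against 399 and 415 CPM in WT cells (log2 1.01 ± 0.037), whereas FASN, one of its targets, was lower, as given above. Heat shock chaperones rose in 10 and fell in 4 of 21, with 4 at least 2-fold higher. HSPA8, the constitutive cytosolic chaperone, had 1637 and 1626 CPM in R219S cells, against 929 and 910.1 CPM in WT cells (log2 0.83 ± 0.036). The inducible HSPA1B, near-identical to HSPA1A, had 171 and 163 CPM in R219S cells, against 78.8 and 74.4 CPM in WT cells (log2 1.12 ± 0.045). The small heat shock protein gene HSPB8 had 14.8 and 13.2 CPM in R219S cells, against 2.20 and 3.04 CPM in WT cells (log2 2.44 ± 0.13). Clock genes had 5 of 19 at least 2-fold higher and 1 at least 2-fold lower. The repressor BHLHE40 had 17.8 and 17.7 CPM in R219S cells, against 2.80 and 2.74 CPM in WT cells (log2 2.67 ± 0.12). The output factor DBP had 73.8 and 75.6 CPM in R219S cells, against 31.6 and 30.7 CPM in WT cells (log2 1.26 ± 0.056). PER2, a core repressor of the clock, had 12.7 and 13.6 CPM in R219S cells, against 34.7 and 34.3 CPM in WT cells (log2 -1.39 ± 0.079). Of 16 NF-kB genes 7 rose and 4 fell, and the rises included inhibitors of the pathway. NFKBIA had 72.8 and 77.1 CPM in R219S cells, against 31.5 and 31.3 CPM in WT cells (log2 1.26 ± 0.056). TNFAIP3 had 13.1 and 12.7 CPM in R219S cells, against 4.18 and 4.13 CPM in WT cells (log2 1.63 ± 0.12). SGK1, a kinase induced by glucocorticoids, had 17.3 and 17.9 CPM in R219S cells, against 3.09 and 3.79 CPM in WT cells (log2 2.38 ± 0.12), while FKBP5, ZBTB16 and PER1, induced by the same hormones, fell. SAT1, which breaks down polyamines, had 18.3 and 20.8 CPM in R219S cells, against 149 and 147 CPM in WT cells (log2 -2.92 ± 0.057).

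The 13 mRNAs encoded by the mitochondrial genome rose in 11 cases and 2 were not called, with a median log2 fold change of 0.17, each by less than 2-fold. MT-CO1, a cytochrome oxidase subunit, had 11764 and 11831 CPM in R219S cells, against 10269 and 10264 CPM in WT cells (log2 0.20 ± 0.033). Mitochondrial counts were 4.85% and 4.88% of R219S libraries and 4.40% and 4.41% of WT libraries, and ribosomal protein genes took 6.12% and 6.05% of R219S libraries and 5.73% and 5.58% of WT libraries. The part of these shares in the mitochondrial result was not tested.

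**Figure D3:**
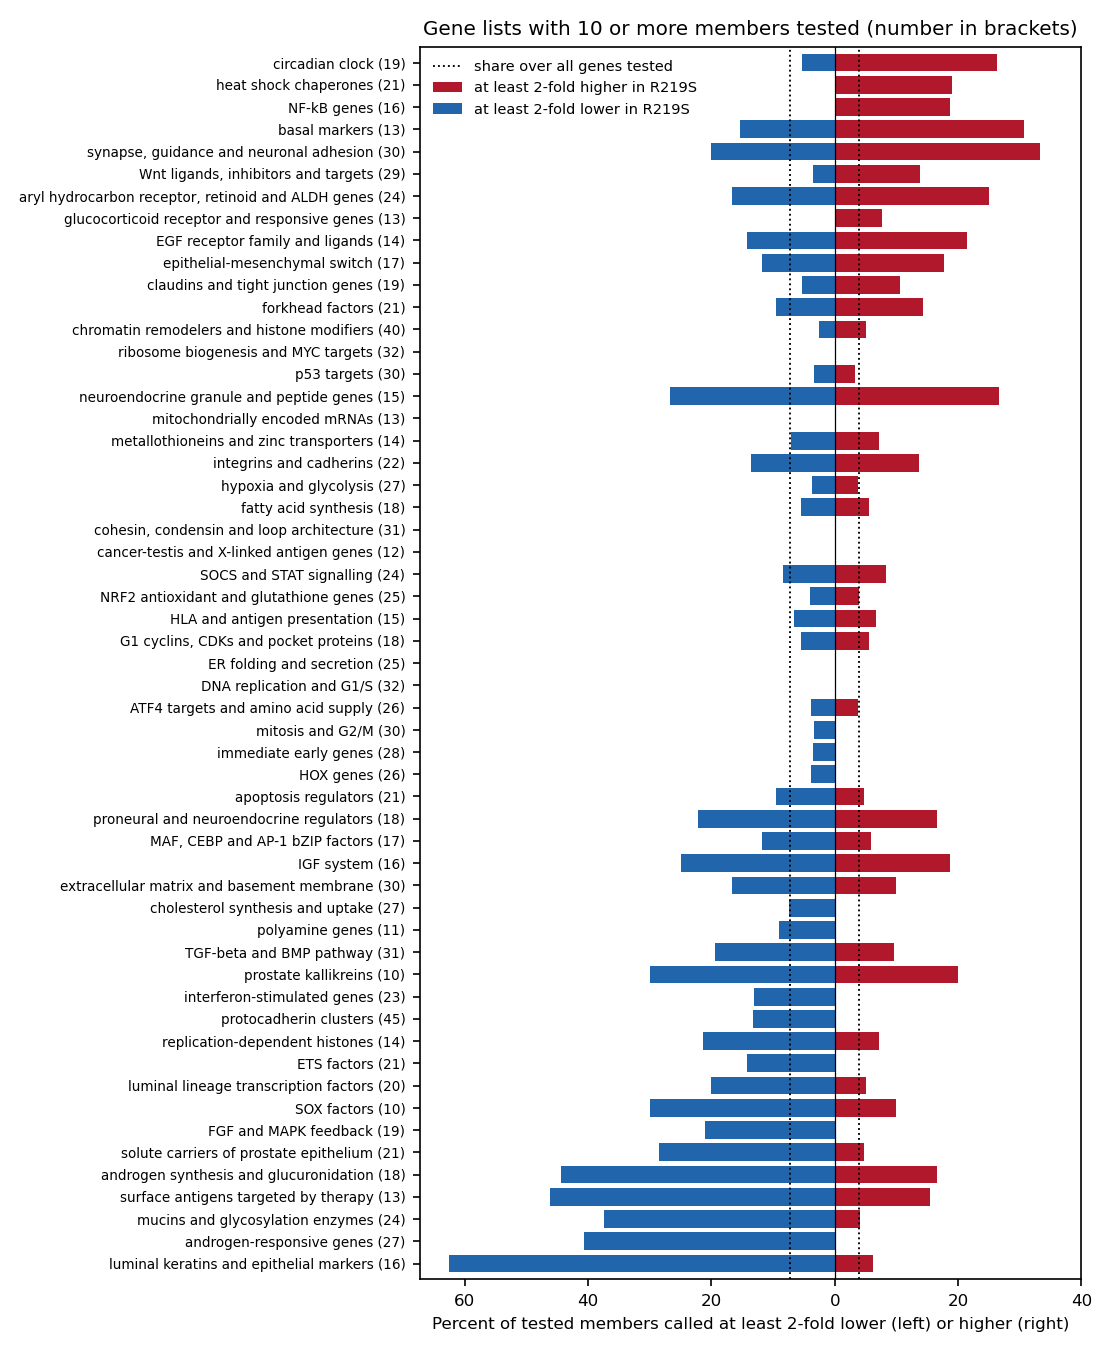
For 55 of the 56 gene lists with at least 10 members tested, the percent of tested members called at least 2-fold lower in R219S (bars to the left) or at least 2-fold higher (bars to the right), ordered by the difference. Dotted lines mark the shares over all genes tested, 7.22% lower and 3.9% higher; luminal markers, androgen-responsive, mucin, surface antigen and glucuronidation lists reach farthest left, and the mitosis, ribosome biogenesis and cohesin lists have almost no change of that size.

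The R219S differences were set against those of 24 h of dTAG treatment, a comparison that shares no library with them. Of 12570 genes tested in both comparisons and in their interaction, 1274 changed at least 2-fold between R219S and WT and 885 between 24 h and 0 h. Over all 19607 genes of the 24 h fit the share at least 2-fold changed was 7.87%, with 3.47% higher and 4.41% lower. The 343 genes in both lists are 26.9% of the R219S list, where 885 of all 12570 genes changed that much at 24 h. They are 38.8% of the 24 h list, where 1274 of all 12570 changed that much in R219S cells. Of the 343 genes, 278 moved in the same direction, 102 higher and 176 lower in both, and 65 in opposite directions. The difference between both effects was called for 7535 of 13458 genes (56%) in the interaction test, and for 963 of the 1274 genes (75.6%). Across these 12570 genes Spearman's rho of the log2 fold changes was 0.20, a description over genes, which are not independent replicates.

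Some luminal genes fell in both. STEAP2 fell by 1.77 and FOLH1 by 1.41 at 24 h on the log2 scale, and their R219S effects were different by -0.27 ± 0.065 and -0.35 ± 0.064 (adjusted p = 0.000251 and 2.30e-06). IGF1 had a log2 fold change of -4.89 ± 0.15 at 24 h, from which the R219S effect differed by -1.06 ± 0.48 (adjusted p = 0.0529). Other luminal genes differed between the comparisons. TMPRSS2 had 48.3 and 46.4 CPM at 24 h, against 29.6 and 30.9 CPM at 0 h (log2 0.65 ± 0.061), a higher level at 24 h, so that the R219S effect differed by -5.54 ± 0.17 (adjusted p = 4.15e-45). KLK3 had 183 and 179.6 CPM at 24 h, against 143 and 143 CPM at 0 h (log2 0.34 ± 0.039), and its R219S effect differed by -2.87 ± 0.11 (adjusted p = 8.82e-39). SPDEF fell further at 24 h, with 2.31 and 1.83 CPM at 24 h, against 42.8 and 39.8 CPM at 0 h (log2 -4.32 ± 0.11), and its R219S effect was less negative by 2.70 ± 0.11 (adjusted p = 3.62e-36). The starting levels of these genes also differed: WT cells had 421 and 442 CPM of SPDEF and 20.1 and 21.9 CPM of KLK3, against the 0 h values just given, and the part of this in the interaction was not tested.

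Of the genes named here, 7 rose or fell at least 2-fold in opposite directions. DIO2 had 9.02 and 11.7 CPM at 24 h, against 33.02 and 29.99 CPM at 0 h (log2 -1.61 ± 0.094). SMOC1 had 156 and 163 CPM at 24 h, against 697 and 697 CPM at 0 h (log2 -2.13 ± 0.037). EPHA3 had 167 and 161 CPM at 24 h, against 443 and 447 CPM at 0 h (log2 -1.44 ± 0.037). All 3 were higher in R219S cells than in WT cells and lower at 24 h than at 0 h, and so were LEF1, SEMA3D and SOX21, whereas EHF was lower in R219S cells and higher at 24 h. The SOX21 fall is uncertain: it had 0.339 and 0.305 CPM at 24 h, against 0.533 and 0.944 CPM at 0 h (log2 -1.19 ± 0.48, adjusted p = 0.0406). The interaction was 4.43 ± 0.056 for SMOC1 and 3.86 ± 0.063 for EPHA3 on the log2 scale (adjusted p = 2.62e-74 and 8.56e-66). COL3A1, large in R219S cells, was not called at 24 h (5.26 and 5.22 CPM at 24 h, against 4.56 and 5.004 CPM at 0 h, adjusted p = 0.495). The S-phase gene RRM2 showed the reverse: it had a log2 fold change of -2.40 ± 0.046 at 24 h and -0.39 ± 0.041 in R219S cells (interaction 2.00 ± 0.062, adjusted p = 4.13e-45). DNA replication and G1/S genes, with 15 of 32 lower and a median log2 of -0.11 in R219S cells, were all 32 lower at 24 h, with a median of -1.62, where 24.8% of all genes tested were called lower. ALDH1A3 and CYP1A2 rose in both comparisons, by 2.08 ± 0.19 and 2.15 ± 0.12 at 24 h on the log2 scale.

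**Figure D4:**
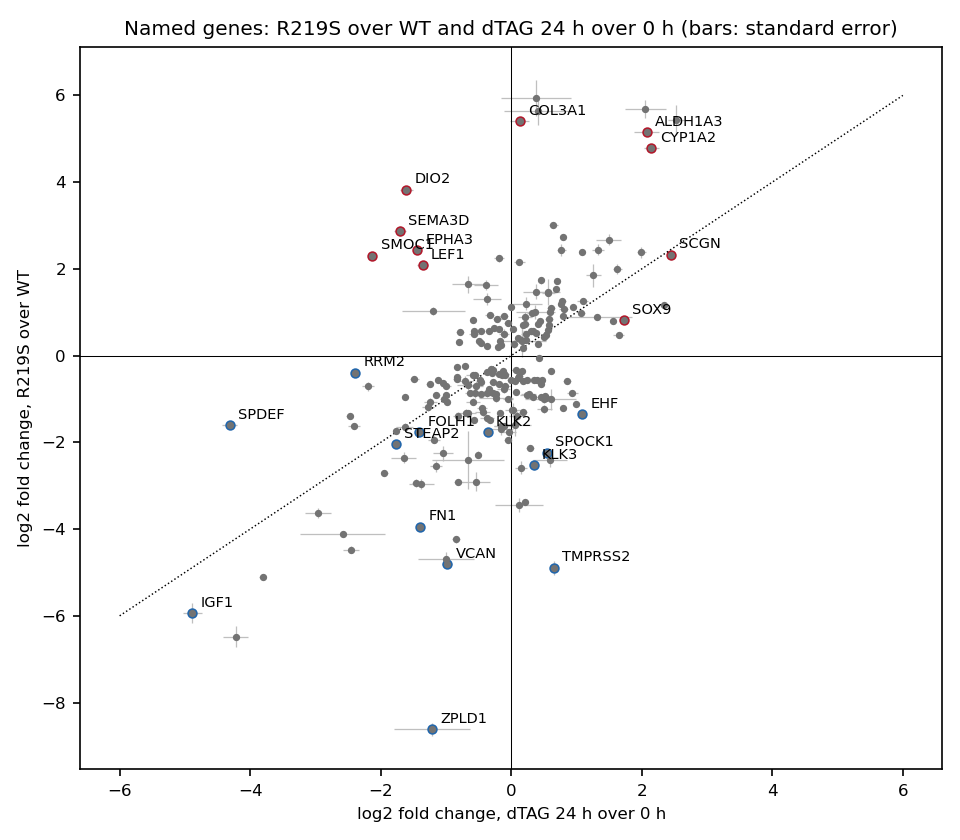
Log2 fold change of 24 h over 0 h of dTAG treatment (horizontal) against that of R219S over WT (vertical) for the 229 named genes tested in both with more than 3 counts in each group of the R219S table; bars are standard errors and the dotted line is equality. IGF1 sits at the lower left, somewhat below the line, TMPRSS2, KLK3 and COL3A1 lie far from it, and DIO2, SEMA3D, EPHA3, SMOC1 and LEF1 sit in the upper left, higher in R219S and lower at 24 h.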

How the data were processed

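The deposited values were raw read counts per gene made by the authors, as whole numbers that were not normalized. Per the submitters' processing notes STAR, featureCounts, DESeq2 and the build hg19 were used; versions, annotation and strand setting are not given in the sources used here, so reads of overlapping antisense genes cannot be told apart. The R219S and WT table held 20243 features named by symbol, of which 26 had names turned into dates by a spreadsheet (0.172% to 0.186% of counts); they were fitted with the rest and go unnamed. The 24 h and 0 h table held 57905 features, and 17598 were matched 1 to 1 between the tables. Per-sample columns that matched no label numbered 0, and 2 further count tables were not used here.

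Groups came from the labels. Counts were tested in R 4.3.3 with edgeR 4.0.16 (filterByExpr, TMM, estimateDisp, robust glmQLFit, quasi-likelihood F test), with Benjamini-Hochberg adjustment over all genes tested and calls at 0.05. All adjusted p-values are from this test. Standard errors are approximate (the absolute log2 fold change divided by the root of F). The fit of R219S against WT used their 4 libraries, the 24 h fit its 4, and the interaction all 8 with a baseline for each table. Lower bounds use a floor of 3 counts over a group, ratios an exact 95% interval, and both cover counting error only. On simulated data with 200 changed genes among the 13990 of R219S against WT, 99% of 2-fold and 86% of 1.5-fold changes were recovered, with 10 false calls. The changed genes were drawn from those above a count limit, and the noise from dispersions fitted to these same libraries. Far more genes, 8688, were called in the real data, so these rates need not carry over to it or to genes with few counts.

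The comparison, the 62 gene lists and the rule for named genes were chosen with earlier results of these data known. Of the 1484 genes in the lists, 1455 matched a feature. Named are FOXA1; the 15 largest rises and falls among called genes with at least 1 CPM in the higher group and no overlap; the 10 called genes with the largest difference in CPM and the 10 with the smallest p; genes at 0 in one group with at least 50 counts in each library of the other; up to 4 called members of each list with the smallest p; and defining cell markers. Genes named beyond it, KRT7, GATA2, CDH1, VIM, UGT2B17, UGT2B10, KLK14, KLK8, HSD17B3, STS, AKR1C1, ERBB3, ERBB4 and EGFR besides those so described, were chosen after their values were seen. Alternatives were DESeq2 1.42.0, RLE, upper-quartile and no composition scaling, other count filters, non-robust estimation, a replicate block and leaving out each library. Some genes that the rule names are not reported here. Sequences were read from RefSeq (GRCh38.p14); the counts' build differed, so no coordinate comes from the count tables.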

Additional observations from a re-analysis of the deposited data

Results flagged for a closer look

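DIO2, which activates thyroid hormone, was singled out because its libraries moved in opposite directions in the 2 comparisons. It had 296 and 304 CPM in R219S cells, against 21.8 and 20.2 CPM in WT cells (log2 3.83 ± 0.051), and 9.02 and 11.7 CPM at 24 h, against 33.02 and 29.99 CPM at 0 h (log2 -1.61 ± 0.094). The R219S effect exceeded the 24 h effect by 5.43 ± 0.093 on the log2 scale, the interaction being tested with edgeR in a joint fit of the 8 libraries (adjusted p = 4.53e-55).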

How the results depend on the processing

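Between R219S and WT the number of genes called ran from 6806 with DESeq2 to 8698 with RLE or upper-quartile scaling (8688 as reported), 8669 with library totals alone, 8367 of 13016 with a minimum of 1 CPM and 8675 of 17402 with no low-count filter. Without each library in turn it was 7524 to 7787, the lone sample of a group being assumed to vary like the other group. Changes of at least 2-fold numbered 1241 (minimum 1 CPM) to 1708 (no filter), and DESeq2 called 481 higher and 897 lower of that size. The 2 replicate numbers were not taken as pairs: deviations of same-numbered libraries correlated at -0.016, and the fit with a replicate block called 8441 genes. Interaction calls ran from 6453 (DESeq2) to 7674 (replicate block), and 24 h calls from 7122 (DESeq2) to 9868 (replicate block). FOXA1 stayed between -0.59 and -0.54 on the log2 scale. Of 260 named genes called, 259 kept their call in every setting that tested them, and none changed direction there. APOH, CLDN11 and EMCN were called but not tested with a minimum of 1 CPM, nor APOH without WT replicate 1. SYP, a synaptic vesicle gene (log2 0.28), lost it with DESeq2 (adjusted p = 0.0862) and without R219S replicate 2 (0.0872) or WT replicate 2 (0.111). List counts that moved over 1.5 times were those of claudin and tight junction genes (12 called; 7 with DESeq2; 7 to 10 without a library, lowest without WT replicate 1) and HOX genes (12 called; 7 with DESeq2; 8 to 11 without a library). The cause was not tested.

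Depth limits the low end: a gene at 0 in both R219S libraries is bounded only by 3 counts over the group. With 2 libraries a group of unstated origin, tight replicates make small differences pass, so size matters more than the call. Whether dTAG or DMSO was given, and whether R219S is 1 clone, cannot be told apart from the genotype.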

Other observations

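Clustered protocadherins, adhesion genes that neurons and other cells express from arrays on chromosome 5, fell in 22 and rose in 2 of 45 tested (median log2 -0.44), 6 of them at least 2-fold lower. PCDHB6 had 2.71 and 2.96 CPM in R219S cells, against 14.3 and 14.8 CPM in WT cells (log2 -2.35 ± 0.13, adjusted p = 1.81e-57) and PCDHB10 had 2.85 and 2.34 CPM in R219S cells, against 8.09 and 8.52 CPM in WT cells (log2 -1.69 ± 0.16). Members of these arrays share sequence, so single values are uncertain. Replication-dependent histone genes, also near-identical copies, fell in 8 and rose in 1 of 14 tested. HIST1H2BJ had 0.794 and 0.934 CPM in R219S cells, against 3.84 and 3.19 CPM in WT cells (log2 -2.02 ± 0.25), and HIST1H4H was the 1 that rose, with 15.04 and 12.96 CPM in R219S cells, against 5.91 and 6.12 CPM in WT cells (log2 1.21 ± 0.11). Hypoxia and glycolysis genes rose in 16 and fell in 7 of 27 (median log2 0.29): VEGFA, a vessel growth factor, had 355 and 341 CPM in R219S cells, against 191 and 180.5 CPM in WT cells (log2 0.90 ± 0.039), the glucose transporter SLC2A3 had 12.05 and 13.6 CPM in R219S cells, against 3.19 and 2.59 CPM in WT cells (log2 2.13 ± 0.13), and NDRG1, a gene also induced by androgen, had 75.6 and 73.3 CPM in R219S cells, against 177 and 179 CPM in WT cells (log2 -1.26 ± 0.045). Interferon-stimulated genes fell in 8 and rose in 1 of 23. The share lower, 34.8%, was near the 31.6% of all genes tested, and fewer were called (39.1%, against 62.1%). BST2, an antiviral tether, had 1.03 and 0.973 CPM in R219S cells, against 2.88 and 3.23 CPM in WT cells (log2 -1.60 ± 0.26).

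Genes along most of chromosome 15 were shifted. The median log2 fold change of its 441 tested genes was -0.14, and 46.5% of them were called lower and 21.1% higher, while the medians of the other chromosomes ran from -0.038 to 0.055 and their shares called lower from 26.3% to 36.6%. Divided into 6 blocks of 73 or 74 genes in chromosome order, the block from NIPA1 to INO80 had a median of 0.024 and the other 5 had medians from -0.22 to -0.089. The large rises of CYP1A1, CYP1A2 and ALDH1A3 lie on the same chromosome and run against its median. No test was made of this pattern, which was found after the values were seen, and its cause was not tested.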
